A study of Mus musculus with 4 samples.

Results

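The ATF4 stress and amino acid response was followed as a list of 34 genes, fixed by name but chosen with earlier results of these data known. Of these, 33 matched a feature of the array by gene symbol, out of 21335 genes with a symbol in all. Array values of Pycr1 were not analysed here. For each gene the feature with the highest mean over all 4 arrays was taken. Phgdh was read from a feature that also carries the symbol Gm6756, and 32 genes had a feature with no other symbol. The arrays were hybridised with RNA of MC3T3-E1 cells, a pre-osteoblast line from mouse calvaria (C57BL/6), kept in medium with 1% serum. The treated cells received 100 µM citalopram (0.0001 mol per litre), an antidepressant that blocks serotonin reuptake, the control cells received none, and RNA of both was taken at day 7 and at day 3. Each of these 4 groups has 1 array, so a difference at a single day has no replicate error and no test. A single cell line in 1 culture design is the model, and nothing in the labels says how many of the 3 wells per treatment an array represents.

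ATF4 is a basic leucine zipper (bZIP) transcription factor and the effector of the integrated stress response. Kinases that sense amino acid shortage, misfolded protein in the endoplasmic reticulum, double-stranded RNA or haem shortage phosphorylate the initiation factor eIF2, which lowers general translation but favours translation of the Atf4 message. ATF4 protein can therefore increase without more Atf4 mRNA, and arrays measure only the mRNA. Its targets import and make amino acids and, with the factor CHOP, drive stress and death programmes. In mouse osteoblasts ATF4 is known to be required for bone formation and collagen production.

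ATF4 binds DNA with C/EBP partners at a composite element whose core is TGATGNAA. This core was searched on both strands of RefSeq promoter windows (GRCm38.p6, from 250 bases before to 50 bases after a transcript start). It was found for 10 of the 29 members with a window (34.5%), against 1219 of 27025 genes (4.51%). The members with a match were Atf3, Chac1, Trib3, Asns, Fgf21, Nupr1, Slc1a4, Pycr1, Jdp2 and Vldlr, and 5 members had no window in the table. The list was drawn up from genes known as ATF4 targets, so a high share is what such a list carries with it. A match is a description of the letters and does not show that a factor binds there. The stretches below, of 48 bases each, are shown because each carries the core and these 6 genes range from the highest to negative differences with citalopram among the members described below. They are read along the gene, with the match in capitals; a match on the opposite strand appears as TTNCATCA.
Nupr1: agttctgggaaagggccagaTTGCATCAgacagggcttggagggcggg
Atf3: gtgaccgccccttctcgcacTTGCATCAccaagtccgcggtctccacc
Trib3: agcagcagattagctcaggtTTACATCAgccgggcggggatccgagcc
Slc1a4: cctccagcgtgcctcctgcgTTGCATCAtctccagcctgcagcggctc
Chac1: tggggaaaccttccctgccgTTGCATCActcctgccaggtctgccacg
Asns: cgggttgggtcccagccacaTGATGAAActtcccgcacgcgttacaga
The stretch of Nupr1 lies at chr7:126625553-126625600, that of Atf3 at chr1:191183416-191183463 and that of Trib3 at chr2:152344019-152344066. Those of Slc1a4, Chac1 and Asns lie at chr11:20332690-20332737, chr2:119351029-119351076 and chr6:7693205-7693252. Of these, Chac1 is on the plus strand and the others are on the minus strand. The first capital stands 110 bases before the start in Nupr1 and in Atf3, 4 bases before it in Slc1a4, 193 in Chac1 and 23 in Asns. In Trib3 it is base 15 of the transcript.

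The values are log2 expression values as the authors deposited them. Low values were kept out of counts by a floor, set for each array at the 40th percentile of its genes (5.98 to 6.05); a gene was counted in a comparison when its brighter array reached the floor. Of the 33 measured members, 30 reached it on at least 1 array; Slc7a3 (5.47 to 5.90), Fgf21 (5.90 to 5.99) and Stc2 (5.59 to 5.79) did not on any. The cell label was checked against 10 osteoblast markers, of which 7 were measured here. Col1a1, Col1a2, Sparc, Sp7 and Dlx5 were above the floor on every array and Ibsp on none. Alpl reached the floor on the 2 control arrays only. It was at 5.93 with citalopram and 6.09 in control at day 7, and at 6.01 with citalopram and 6.07 in control at day 3. Of other cell types, 4 of 6 myogenic, 3 of 6 chondrocyte, 3 of 6 macrophage, 1 of 6 adipocyte and 1 of 6 endothelial markers reached the floor on some array. The leukocyte marker Ptprc and the macrophage markers Adgre1 and Csf1r did not. Among all 21335 genes, 13307 reached the floor on at least 1 array. Lyz2, a macrophage marker above the floor, was higher with citalopram by 0.47 at day 7 and by 0.57 at day 3. The other macrophage markers above the floor, Cd68 and Cd14, each differed by 0.15 at day 7. At day 3 they differed by -0.01 and -0.04. The mean level of that marker list, Lyz2 included, was 6.67 with citalopram and 6.58 in control at day 7. At day 3 that mean was 6.77 with citalopram and 6.66 in control. Of the chondrocyte markers, Sox9 was higher with citalopram by 0.28 at day 7 and by 0.41 at day 3. Col9a1, also above the floor on every array, was lower with citalopram, by -0.06 at day 7 and -0.15 at day 3. Col2a1 was at 10.37 with citalopram and 10.60 in control at day 7, and at 9.89 with citalopram and 9.37 in control at day 3, while Acan, Comp and Matn3 stayed below the floor on every array. The mean level of that list was 7.15 with citalopram and 7.15 in control at day 7, and 7.12 with citalopram and 7.01 in control at day 3. The part of these markers in the results below was not tested.

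At day 7, 11 of the 13 transcription factors and stress effectors were higher with citalopram, whereas 6 of the 9 enzymes of amino acid synthesis were lower. Of the 30 members, 4 were at least 1.5-fold higher: Nupr1 (1.67-fold), Atf3 (1.63-fold), Atf5 (1.54-fold) and Trib3 (1.51-fold). After median centring of each array 2 were, Nupr1 (0.69 on the log2 scale) and Atf3 (0.65), with Atf5 (0.57) and Trib3 (0.54) just under the threshold of 0.58. Over all 13037 genes at the floor, 0.545% were that much higher. None of the 30 was 1.5-fold lower, a difference seen in 0.867% of genes. At a smaller threshold of 5/4-fold (0.32 on the log2 scale), 7 members were higher and 1 was lower, against 5.84% and 5.75% of genes. By any amount, 20 of 30 were higher and 10 lower, against 51.4% and 48.6% of genes, with a median of 0.10 on the log2 scale (0.0056 over all genes). At day 3 none of the 30 members was 1.5-fold higher or lower (0.498% and 0.237% of 13056 genes), and at 5/4-fold 2 were higher and 0 lower (5.09% and 2.66%). The median at day 3 was 0.02 over the members and 0.03 over all genes, with 16 of 30 higher and 14 lower against 57.5% and 42.4% of genes. After cyclic loess 14 of the 30 were higher at day 3, with a median of -0.01. The central 95% of genes at the floor differed by -0.43 to 0.42 at day 7 and by -0.33 to 0.40 at day 3, which gives a scale for the values below.

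**Figure D1:**
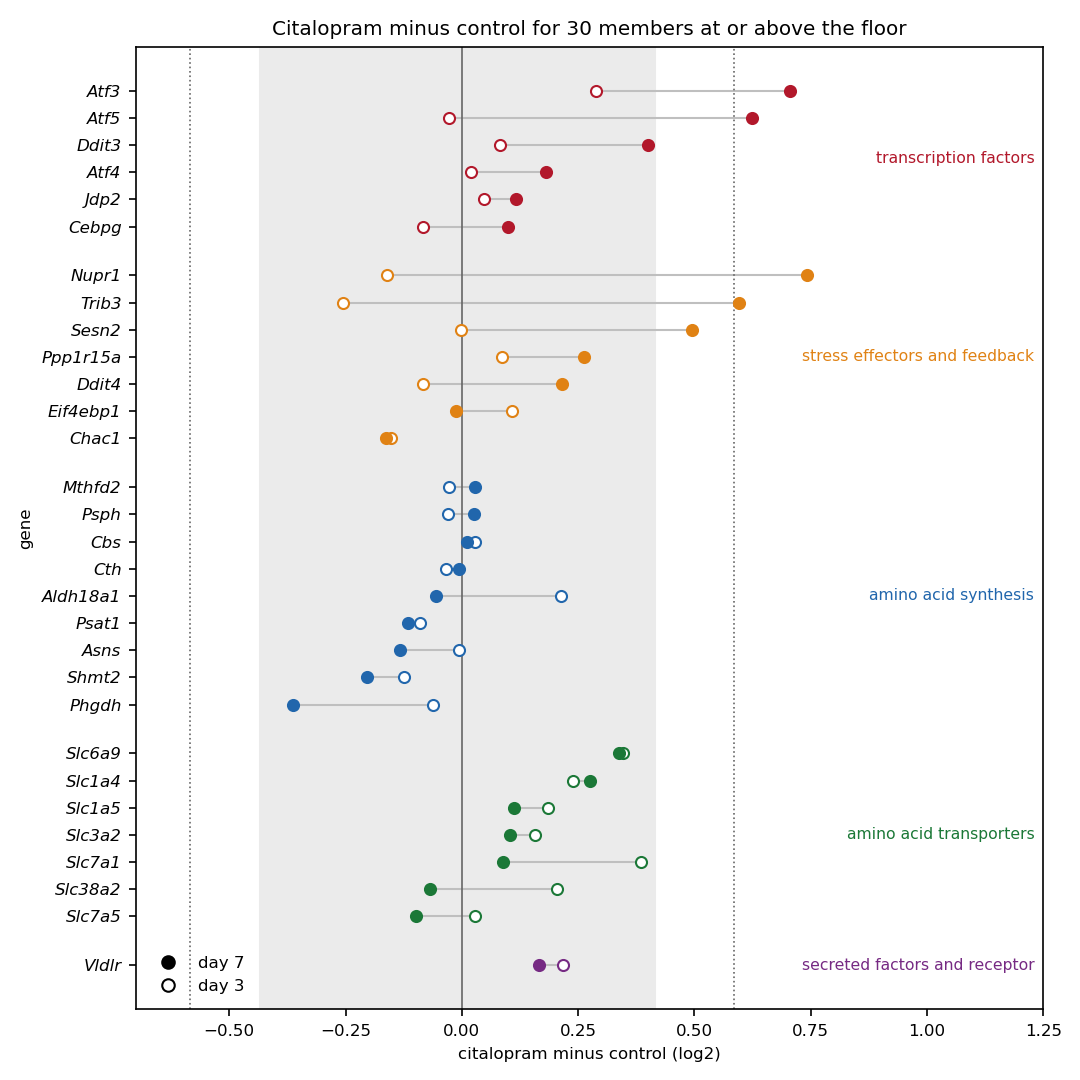
Citalopram minus control on the log2 scale for the 30 members at the floor, grouped by role, with filled points for day 7 and open points for day 3, 1 pair of arrays each. The grey band is the central 95% of all genes at day 7 and the dotted lines mark 1.5-fold; at day 7 Nupr1, Atf3, Atf5 and Trib3 lie beyond the upper line and all 9 synthesis enzymes lie between -0.36 and 0.03.

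All 6 transcription factors of the list were higher with citalopram at day 7 (median 0.29), against 51.4% of all genes. Atf4 itself was at 9.90 with citalopram and 9.72 in control at day 7, and at 9.68 with citalopram and 9.66 in control at day 3. Its difference of 0.18 at day 7 and 0.02 at day 3 ranked 2402nd and 6874th from the top, inside the spread of all genes. Atf4 was thus measured as nearly level on 3 arrays, with the citalopram array of day 7 above them.

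Atf3, a stress-induced factor that mostly represses transcription, was at 8.32 with citalopram and 7.62 in control at day 7, and at 7.89 with citalopram and 7.60 in control at day 3. Both citalopram arrays were above both control arrays, with differences of 0.71 and 0.29. Atf5, a relative of Atf4 whose translation is likewise favoured when eIF2 is phosphorylated, was at 9.83 with citalopram and 9.20 in control at day 7, and at 9.18 with citalopram and 9.21 in control at day 3. The 3 other arrays lay within 0.03 of each other and the citalopram array of day 7 stood 0.61 above the next. Ddit3, which encodes CHOP, was at 9.96 with citalopram and 9.56 in control at day 7, and at 9.30 with citalopram and 9.22 in control at day 3. Here the control arrays also differed between the days, by 0.34, so the day 7 difference of 0.40 stands beside a difference over time in untreated cells. Cebpg, a C/EBP partner of ATF4, and Jdp2, a repressor of AP-1 sites, differed by 0.10 and 0.12 at day 7 and by -0.08 and 0.05 at day 3.

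Among the 7 stress effectors and feedback genes, 5 were higher at day 7 (median 0.26) and 2 at day 3 (median -0.08). The shares of all genes that were higher were 51.4% at day 7 and 57.5% at day 3. Nupr1, a small nuclear stress protein, was at 11.90 with citalopram and 11.15 in control at day 7, and at 11.45 with citalopram and 11.61 in control at day 3. Its difference of 0.74 at day 7 was the 20th highest of all genes; it comes from a higher citalopram array and a lower control array, since control was 0.46 lower at day 7 than at day 3. Trib3, a pseudokinase that restrains ATF4 and CHOP, was at 8.67 with citalopram and 8.08 in control at day 7, and at 7.78 with citalopram and 8.03 in control at day 3. The control arrays of Trib3 were 0.04 apart, and the citalopram arrays were 0.89 apart. Sesn2, a leucine sensor that restrains the growth kinase complex mTORC1, was at 10.18 with citalopram and 9.69 in control at day 7, and at 9.95 with citalopram and 9.95 in control at day 3. At 1.41-fold it was the member closest below the 1.5-fold line at day 7.

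Ppp1r15a, which encodes GADD34, the subunit that directs a phosphatase to eIF2, differed by 0.26 at day 7 and 0.09 at day 3. Ddit4, another inhibitor of mTORC1, differed by 0.21 and -0.08. Eif4ebp1, a translation repressor that mTORC1 switches off, differed by -0.01 and 0.11. Chac1, which encodes a glutathione-degrading enzyme, was the one effector lower with citalopram at both days. It was at 8.46 with citalopram and 8.62 in control at day 7, and at 8.49 with citalopram and 8.64 in control at day 3. Both citalopram arrays of Chac1 were below both control arrays, by 0.16 and 0.15.

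**Figure D2:**
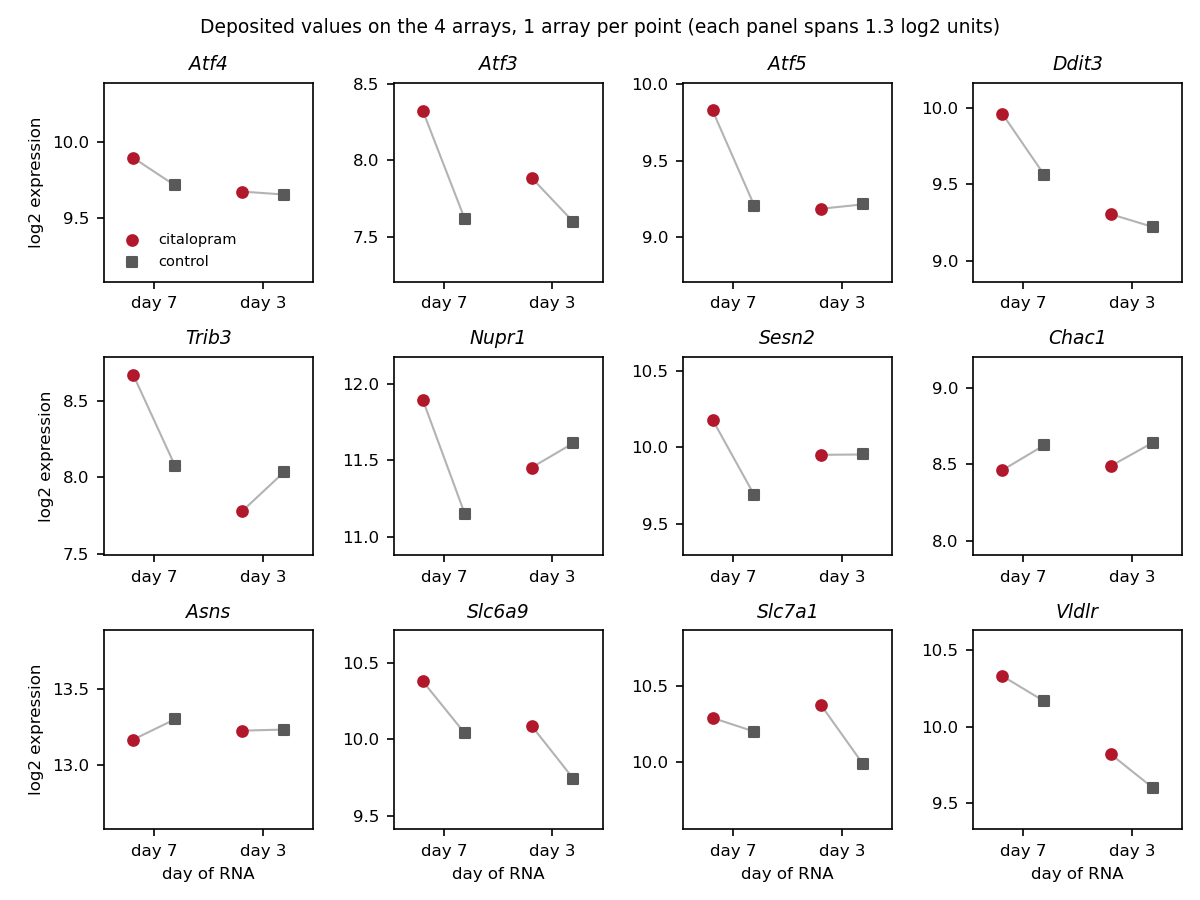
Deposited log2 values of 12 members on the 4 arrays, with the day 7 pair at the left and the day 3 pair at the right of each panel, citalopram as circles and control as squares, 1 array per point. In Atf5 and Trib3 the citalopram array of day 7 stands 0.61 and 0.60 above the next, whereas Asns spans 0.13 over all 4 arrays.

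The 9 measured enzymes of amino acid synthesis differed little. With citalopram 3 were higher and 6 lower at day 7 (median -0.06), and 2 were higher and 7 lower at day 3 (median -0.03), and 5 were lower at both days. After median centring all 9 were lower at day 7 (median -0.11). On the deposited values 48.6% of all genes were lower at day 7 and 42.4% at day 3. Asns, the asparagine synthetase gene and a classical ATF4 target, was at 13.17 with citalopram and 13.30 in control at day 7, and at 13.23 with citalopram and 13.23 in control at day 3. The serine pathway genes Psat1 and Psph differed by -0.12 and 0.03 at day 7. Phgdh, the first enzyme of that pathway, was at 11.23 with citalopram and 11.59 in control at day 7, and at 11.53 with citalopram and 11.60 in control at day 3. That feature is shared with Gm6756; the feature of Phgdh alone gave -0.22 at day 7 and -0.11 at day 3, where the shared one gave -0.36 and -0.06. Of the mitochondrial folate enzymes, Shmt2 differed by -0.20 at day 7 and -0.13 at day 3, and Mthfd2 by 0.03 and -0.03. Aldh18a1, of proline synthesis, differed by -0.06 and 0.21, and the transsulfuration genes Cth and Cbs by -0.03 to 0.03 at either day.

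At day 3 all 7 amino acid transporters that reached the floor were higher with citalopram (median 0.20). At day 7 this was 5 of 7 (median 0.10). After cyclic loess the count at day 3 was 6 of 7. Of all genes, 57.5% were higher at day 3 and 51.4% at day 7. Slc6a9, the glycine transporter GlyT1, was at 10.38 with citalopram and 10.04 in control at day 7, and at 10.09 with citalopram and 9.74 in control at day 3. Its differences of 0.34 and 0.35 were nearly equal. Slc1a4, a carrier of alanine, serine and cysteine, was at 10.57 with citalopram and 10.29 in control at day 7, and at 10.39 with citalopram and 10.15 in control at day 3. Both of these genes were among the 5 transporters, of 7, that were higher with citalopram than in control at both days. Slc7a1, a carrier of cationic amino acids, was at 10.29 with citalopram and 10.20 in control at day 7, and at 10.37 with citalopram and 9.99 in control at day 3, so its larger difference was the earlier one. Slc1a5, a glutamine carrier, differed by 0.11 and 0.18, and Slc38a2, a sodium-coupled neutral amino acid carrier, by -0.07 and 0.20. The light and heavy chains of the leucine carrier LAT1 differed by -0.10 and 0.03 (Slc7a5) and by 0.10 and 0.16 (Slc3a2), day 7 first.

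Whether the roles differ from each other was not tested, because genes of 1 pair of arrays are not replicates. The citalopram change was higher at day 7 than at day 3 for 15 of the 30 members and lower for 15, against 45.5% and 54.5% of 13297 genes. It was higher for 6 of 6 transcription factors and 5 of 7 stress effectors, counts that were the same under all 3 other scalings. It was higher for 3 of 9 synthesis enzymes (2 to 4 under those scalings) and for 1 of 7 transporters. For the transporters this count was 3 after cyclic loess, 2 after quantile normalization and 0 after median centring. Of the 30, Nupr1, Trib3 and Atf5 (3 members) had a citalopram change at least 1.5-fold higher at day 7 than at day 3, by 0.90, 0.85 and 0.65 on the log2 scale. Of all genes, 1.15% did so. None of the 30 had a change that much lower, against 1.85% of genes.

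Over both days together, limma's additive fit of treatment and day called 0 of 13307 genes for citalopram (0%), and 0 of the 30 members. The smallest adjusted p over all genes was 0.126 and over the members 0.312. At an unadjusted p under 0.05, 732 of the 13307 genes were higher and 473 lower. With both directions counted, the share of members passing, 3 of 30, was close to that of all genes, and these 3 were higher. These were Atf3 (0.50, SE 0.13), Slc6a9 (0.34, SE 0.10) and Slc1a4 (0.26, SE 0.10), with limma's adjusted p of 0.312, 0.385 and 0.508. All 3 were higher in both of 2 pairs of arrays, which picking genes by this fit favours. Members whose citalopram change differed between the days carry that difference as error in this fit, so Nupr1 (0.29, SE 0.18) and Trib3 (0.17, SE 0.18) had adjusted p-values of 0.740 and 0.905 from limma. After quantile normalization limma called 1 member, Atf3 (0.46, adjusted p 0.0485), among 145 genes.

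Between the days, the largest differences of members within a treatment were in citalopram-treated cells. At day 7, 3 of 30 members were at least 1.5-fold higher than at day 3 with citalopram, against 2.16% of 13067 genes: Trib3 (0.89), Ddit3 (0.66) and Atf5 (0.64). Median centring moved the median of all genes in this comparison to -0.19, against -0.03 on the deposited values, and left 1 member past 1.5-fold, Trib3 (0.74). None of the 30 was that much lower (2.65% of genes). At 5/4-fold 8 were higher with citalopram and 0 lower, against 8.61% and 13.1% of genes, and by any amount 17 were higher and 13 lower, against 44.8% and 55.2%. In control, 0 of 30 were 1.5-fold higher and 0 lower, against 1.26% and 1.14% of 13073 genes. At 5/4-fold 3 were higher and 1 lower in control, against 6.1% and 7.39%, and by any amount 19 were higher and 11 lower, against 48.3% and 51.7%. Vldlr, a lipoprotein receptor gene that ATF4 is known to induce, was at 10.33 at day 7 and 9.82 at day 3 with citalopram, and at 10.17 at day 7 and 9.60 at day 3 in control. Both day 7 arrays lay above both day 3 arrays. Vldlr rose between the days in limma's fit over both treatments (0.54, SE 0.10; adjusted p 0.0288) and was the member called, of 30, where limma called 1.86% of genes higher and 2.16% lower. Its adjusted p was 0.0503 without a floor and 0.105 without the treatment term. Ddit3 (0.50, SE 0.12; 0.05002) and Slc1a5 (0.42, SE 0.11; 0.0638) had limma's next smallest adjusted p-values among the members and did not pass. Ddit3 did pass under 5 alternatives, with limma's adjusted p between 0.00484 and 0.0462, and Slc1a5 under 3, with 0.00909 to 0.0320.

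The citalopram array of day 7 was the highest of the 4 arrays for 15 of the 30 members, a count chosen after its values were seen, against 28.7% of 13297 genes; after median centring this was 13 members against 12.8% of genes. They were Atf4, Atf3, Atf5 and Ddit3 of the factors, Trib3, Nupr1, Sesn2, Ddit4 and Ppp1r15a of the effectors, and Psph, Slc3a2, Slc1a4, Slc1a5, Slc6a9 and Vldlr. Each other array was the highest for 5 members, against 30.5% of genes for the citalopram array of day 3, 18.4% for the control array of day 7 and 22.5% for the control array of day 3. For Atf3, Atf5, Ddit3 and Trib3 the citalopram array of day 7 stood at least 5/4-fold above the next, as for 2.35% of genes. No member did so on the other arrays (0.955%, 0.263% and 0.579% of genes, in the same order).

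**Figure D3:**
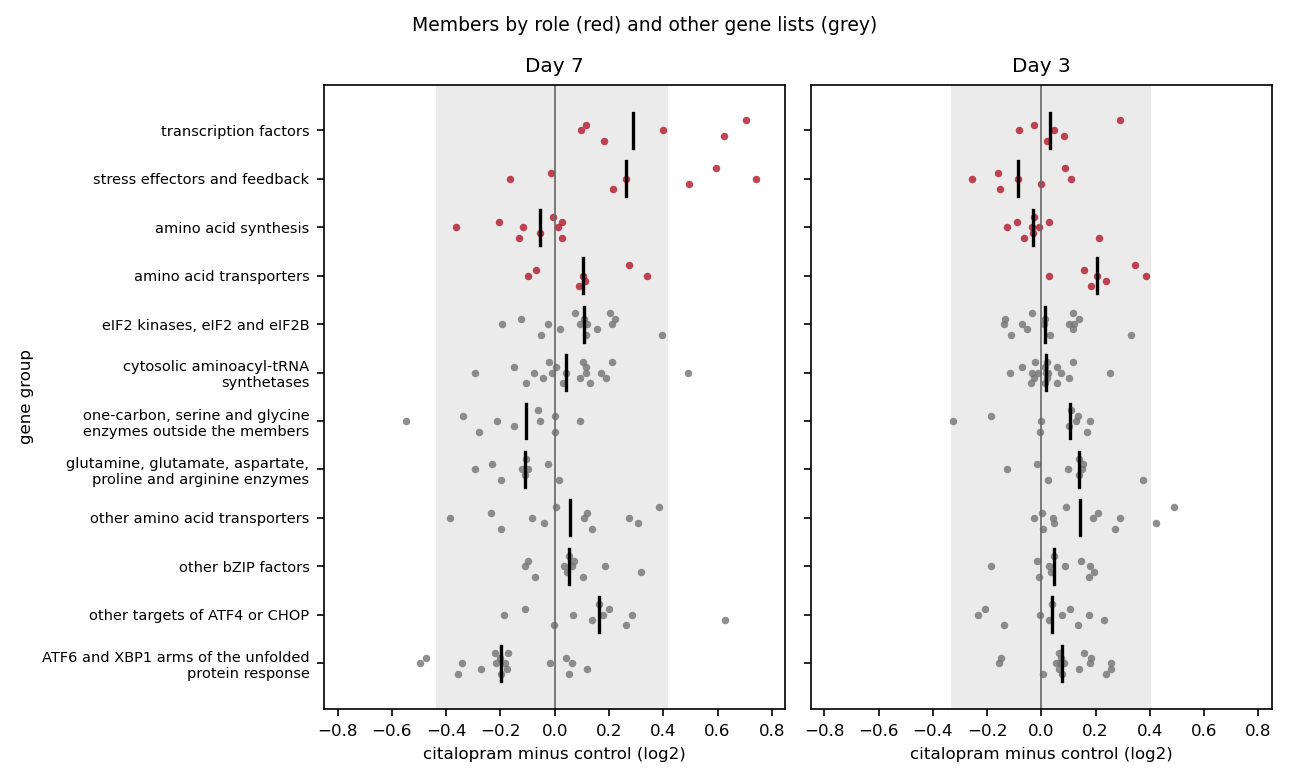
Citalopram minus control on the log2 scale at day 7 (left) and day 3 (right), with 1 point per gene at the floor, members by role in red, other lists in grey, a black bar at each median and the central 95% of all genes as a grey band. At day 7 the medians run from 0.29 for the transcription factors to -0.20 for the ATF6 and XBP1 arms of the unfolded protein response.

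Other genes around the pathway were followed in 8 lists. Of all genes, 51.4% were higher and 48.6% lower with citalopram at day 7, and 57.5% and 42.4% at day 3. Upstream, a list of eIF2 kinases, eIF2, its exchange factor eIF2B and 4 related genes had 11 of 15 measured genes higher with citalopram at day 7 (median 0.11) and 9 of 15 at day 3 (median 0.01; 7 of 15 after quantile normalization). The related genes, Gcn1, Eif2a, Ppp1r15b and Nck1, are neither kinases nor subunits of these factors and were all higher at day 7, by 0.07 to 0.22; without them 7 of 11 were higher at day 7 and 6 of 11 at day 3. Eif2b4, an eIF2B subunit, differed by 0.39 and 0.01. Eif2ak3, the kinase PERK that answers stress in the endoplasmic reticulum, was at 9.49 with citalopram and 9.61 in control at day 7, and at 9.77 with citalopram and 9.45 in control at day 3. That gene, like Eif2ak4, Xbp1, Pdia4 and Hspa5 below, was chosen after its values were seen. Eif2ak4, the kinase GCN2 that answers amino acid shortage, differed by 0.20 at day 7 and -0.07 at day 3.

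Among other known targets of ATF4 or CHOP, 8 of 11 were higher at day 7 (median 0.16) and 7 of 11 at day 3 (median 0.04). Of all genes, 51.4% were higher at day 7 and 57.5% at day 3. Gadd45a, a growth arrest gene, was the gene of this list past 1.5-fold on the deposited values (0.63), though not after median centring (0.57). It was at 9.09 with citalopram and 8.47 in control at day 7, and at 8.50 with citalopram and 8.37 in control at day 3. Of other bZIP factors, 8 of 11 were higher at each day, with medians of 0.05; after median centring 5 of 11 were higher at day 7. Cebpb, a C/EBP factor that dimerises with ATF4, differed by 0.19 and 0.19.

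Other amino acid transporters, which are not members, were higher in 7 of 12 at day 7 (median 0.06). At day 7, 6 of 12 were higher after median centring, and 4 of 9 at the floor of the 60th percentile. At day 3, 11 of 12 were higher (median 0.14). That count was 9 of 12 after cyclic loess or median centring, and 10 of 12 after quantile normalization. The lysosomal proton-coupled carrier Slc36a1 was at 9.77 with citalopram and 9.39 in control at day 7, and at 10.00 with citalopram and 9.51 in control at day 3. Cytosolic aminoacyl-tRNA synthetases, which charge tRNAs and include known ATF4 targets, were higher in 12 of 19 at day 7 (median 0.04) and in 12 of 19 at day 3 (median 0.02). With median centring this was 9 of 19 at day 7, and with quantile normalization 6 of 19 at day 3. Tars, the threonyl-tRNA synthetase gene, differed by 0.49 at day 7 and -0.04 at day 3. Enzymes of glutamine, glutamate, aspartate, proline and arginine were lower in 8 of 9 at day 7 (median -0.11) and higher in 7 of 9 at day 3 (median 0.14). Ass1, argininosuccinate synthase, differed by -0.10 and 0.38. Folate and glycine enzymes outside the members were lower in 7 of 10 at day 7 (median -0.10) and higher in 6 of 10 at day 3 (median 0.11). Tyms, the thymidylate synthase gene, differed by -0.55 and -0.33.

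The ATF6 and XBP1 arms of the unfolded protein response, which raise chaperones of the endoplasmic reticulum, lay on the other side from the stress factors at day 7. With citalopram 13 of 17 were lower at day 7 (median -0.20), and 15 of 17 were higher at day 3 (median 0.08). None of the 17 passed 1.5-fold at either day. Of all genes, 48.6% were lower at day 7 and 57.5% were higher at day 3. Sdf2l1, a chaperone partner, was at 9.73 with citalopram and 10.23 in control at day 7, and at 10.20 with citalopram and 10.35 in control at day 3. Pdia4, a disulfide isomerase gene, was at 11.98 with citalopram and 12.45 in control at day 7, and at 12.45 with citalopram and 12.27 in control at day 3. Xbp1, the factor of its arm, differed by -0.20 and 0.18, and Hspa5, the chaperone BiP, by 0.04 and 0.26. The citalopram change was lower at day 7 than at day 3 for 17 of 17 genes on the deposited values and for 16 of 17 after quantile normalization or cyclic loess, with a median difference of -0.26 (-0.02 over all genes). Over all genes, the citalopram change was lower at day 7 than at day 3 for 54.5%. The difference between this list and the stress members was not tested.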

How the data were processed

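Total RNA (250 ng per array, per the labels' protocols) was turned into biotin-labelled cDNA and hybridised to an Affymetrix array, with 1 array for each of 4 groups. The authors deposited 1 table of log2 expression values, the log base being inferred here from the range. The number of arrays limits the precision. Per the submitters' processing notes the software was Partek (version, background correction, summarization and scaling not given in the sources used here).

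Features were named through the platform annotation (of 35556 features, 21789 had 1 symbol, 1621 several and 12146 none). Symbols were split, so 1651 genes share a feature with another gene. All 33 member symbols were checked through Entrez numbers against RefSeq (GRCm38.p6), and 0 differed. Members and lists were chosen with earlier results of these data known. Values on all 4 arrays are printed for Atf4, for members past 1.5-fold in any comparison, and for others that show the order within a role. Of each list, genes past 1.5-fold with citalopram are named, or else the gene with the largest absolute mean citalopram difference. Medians and counts use genes at the floor.

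limma 3.58.1 under R 4.3.3 (moderated two-sided test, Benjamini-Hochberg over all genes tested) was fitted with terms for treatment and day on genes at the floor on at least 1 array, leaving 1 residual degree of freedom. With no replicate arrays, a gene's own error is how far its effect differed between the 2 pairs. That spread may be technical or a difference between the days. limma moderates it with a prior drawn from all genes, which weighs 8.06 degrees of freedom against the 1 residual. The printed SEs therefore rest mostly on that prior. The fit was tested on simulated data. Alternatives changed the scaling, the floor, the choice of feature and the fit. Other steps used Python 3.11.15 with pandas 2.3.3 and numpy 2.4.6.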

Additional observations from a re-analysis of the deposited data

Results flagged for a closer look

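Members whose difference had opposite signs in the 2 pairs of arrays compared, with a gap of at least 1.5-fold, are given here; the gaps were not tested, as there is 1 array per group. For citalopram against control, Nupr1 was at 0.74 on the log2 scale at day 7 and -0.16 at day 3, a gap of 0.90. Trib3 was at 0.60 at day 7 and -0.26 at day 3, a gap of 0.85. Atf5 was at 0.62 at day 7 and -0.03 at day 3, a gap of 0.65, with the day 3 value near 0. The gap between treatments for day 7 against day 3 is the same number by construction and adds no support. For day 7 against day 3, Nupr1 was at 0.44 with citalopram and -0.46 in control (0.90). Atf5 was at 0.64 with citalopram and -0.01 in control (0.65).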

How the results depend on the processing

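The labels give no replicate numbers, so none served as a block; the fit of treatment and day pairs the arrays by day. Leaving out any array would leave the fit of treatment and day with no residual degrees of freedom.

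Median centring of each array moved the median of all genes from day 3 to day 7 to -0.19 with citalopram and -0.12 in control, against -0.03 and -0.01 on the deposited values. Under it, 2 members in place of 4 were 1.5-fold higher with citalopram at day 7, and 1 in place of 3 was 1.5-fold higher at day 7 than at day 3 with citalopram. The members' medians over time became 0.0025 with citalopram and -0.065 in control. Of the list genes at day 7, 0 in place of 1 (Gadd45a) were then 1.5-fold higher with citalopram and 1 in place of 0 lower. Under the other alternatives run, these counts stayed within 1.5 times of the main ones.

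The count of genes limma called for citalopram was 0 on the deposited values, 145 after quantile normalization, 90 after cyclic loess, 9 after median centring and 6 with a floor at the 60th percentile; among members it was 1 after quantile normalization and 0 under the other alternatives run. For day, limma called 534 genes, against 1666, 1247 and 1927 under those 3 scalings, 239 without a floor, 348 with features of 1 symbol and 96 with day alone. Members called for day numbered 1, against 3 after quantile normalization, after cyclic loess and with a floor at the 60th percentile, 2 with features averaged and with an intensity trend, and 0 without a floor and with day alone. With the longer core TGATGNAAT, 3 members in place of 10 had a match (1.08% of genes). Among single genes, Atf3 passed for citalopram after quantile normalization, Ddit3 and Slc1a5 passed for day under 5 and 3 alternatives, and Vldlr did not pass for day under 2. The causes were not tested.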
